A study of Mus musculus with 6 samples.

Results

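The mouse lincRNA locus probes are 691 array probes whose identifier contains the word mouselincRNA, out of 59709 probes left on the array once control spots and negative probes were set aside. They were taken by name alone, and their measured values played no part. Each probe has 1 spot per array and is named by a locus number, from 2 to 1673, followed by a plus or a minus sign for the strand. There were 343 plus probes and 348 minus probes. They cover 351 loci, of which 340 have a probe on both strands, 3 a plus probe only and 8 a minus probe only. The RNA came from primary microglia, macrophage-like cells resident in the brain, shaken off mixed glial cultures of newborn C57BL/6 mice. A group of 3 arrays held resting cells kept for 24 h without stimulation, and a group of 3 held cells given 10 ng/ml interleukin-4 (IL-4) for 24 h, the cytokine used to push microglia towards the M2 state. The labels do not say that the arrays of a group came from separate cultures, so P-values measure the spread between these samples, which may be technical.

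Long intergenic noncoding RNAs (lincRNAs) are transcripts with no protein product that arise between protein-coding genes. Many were first located as stretches of chromatin that carry the histone marks of active promoters and of transcribed gene bodies, a signature that gives no direction of transcription. As a class they are known for low and cell-type-restricted levels, and some of them act by bringing chromatin-modifying complexes such as PRC2 to target genes. The scanner files give no gene name, genome position or probe sequence for the numbered loci, so they are described by number, and which genome strand the plus and minus signs stand for was not stated in the sources used here.

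Each array was read in 1 colour, and the values used are processed signals, intensities from which background had been subtracted within the array. The number of arrays limits the precision. IL-4 array 2 stood apart. The 1200 negative spots, which match no mouse transcript by design, had a median signal of 71.2 on it and of 2.67 to 7.37 on the other 5 arrays. The median of the lincRNA probes was high there too, 77.2, where the other 5 arrays gave 4.64 to 7.60. The 3 resting arrays and IL-4 array 2 shared a scan, while the remaining arrays had a scan of their own each. Of 20 marker genes of microglia, other brain cells and the M2 state, 0 could be found among the 116 probes that carry a gene accession, so the labelled cell type was not checked here.

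Most mouse lincRNA probes gave no signal that stood out from background. By the scanner's own flag for a signal well above background, 33.9%, 19.5% and 37.5% of the 691 probes passed on resting arrays 1, 2 and 3, and 24.2%, 67.7% and 11.9% passed on IL-4 arrays 1, 2 and 3. The share on IL-4 array 2 was the highest of the 6, and the groups overlapped. Of the negative spots, 67.7% passed the same flag on that array and 0.417% to 11.0% on the other 5, so on IL-4 array 2 the flag did not separate lincRNA probes from negative spots. With the flag, the mean share was 30.3% ± 9.49 (SD, n = 3) in resting and 34.6% ± 29.4 (SD, n = 3) in IL-4 microglia (exact two-sided permutation test, p = 0.9, where 0.1 is the smallest possible).

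A stricter call was set on each array at the 95th percentile of its own negative spots, called the negative level from here on. The lincRNA probes above it made up 25.6%, 22.1% and 26.8% in resting microglia and 22.1%, 12.2% and 22.9% with IL-4. By construction, 5% of the negative spots lie above this level. IL-4 array 2 was now the lowest, the reverse of its place by the flag. The means were 24.8% ± 2.41 (SD, n = 3) for resting and 19.1% ± 5.98 (SD, n = 3) for IL-4 cells (exact permutation test, p = 0.3). Without IL-4 array 2 they were 24.8% and 22.5% (exact permutation test, p = 0.4). Because RNA of a whole culture was measured, fewer cells transcribing a locus and less RNA per cell cannot be told apart.

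**Figure D1:**
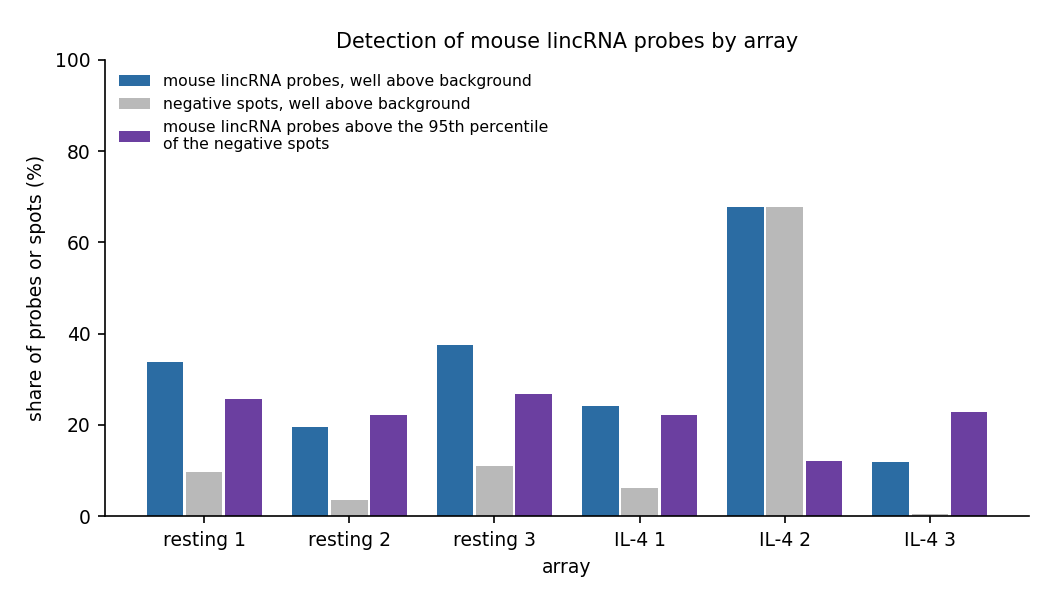
Share of mouse lincRNA probes (691) and of negative spots (1200) that passed a detection call on each of the 6 arrays, in percent. By the flag for well above background, lincRNA probes and negative spots stand level at 67.7% on IL-4 array 2, where the share of lincRNA probes above the 95th percentile of the negative spots is the lowest, 12.2%.

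Probe by probe, 162 of the 691 were flagged on 0 arrays, and 262 on exactly 1 array. For 230 of these 262 the single array was IL-4 array 2. At the other end, 65 probes (9.41%) were flagged on all 6 arrays, against 31.6% of all probes on the array. By the negative level, 412 probes (59.6%) were above it on 0 arrays, against 34.6% of all probes, and 44 (6.37%) were above it on all 6, against 25.3%.

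Mouse lincRNA locus probes were detected less often than the array's mouse lincRNA exon probes, a separate series of 3457 probes. Averaged over arrays, 36.3% of exon probes and 21.9% of locus probes were above the negative level, and the exon share was higher on 6 of 6 arrays, by 10.5 to 18.9 percentage points. Human lincRNA counterpart probes, 1217 probes drawn from human loci, were detected slightly less often than the mouse ones, at 20.3%. Here the mouse share was higher on 6 of 6 arrays, with a mean difference of 1.61 ± 0.553 percentage points (SD over 6 arrays). All probes together stood at 45.4%. Of the 2 strands of the mouse loci, minus probes stood at 23.5% and plus probes at 20.4%, with minus higher on 6 of 6 arrays. Each of these 4 differences had p = 0.0313 in an exact two-sided sign-flip permutation test over the 6 arrays, the smallest it can give, and 0.0313 after adjustment over the 4. By the scanner's flag the first 3 had an adjusted p of 0.0417 in the same exact test, while the strand difference fell to 2.09 points, was seen on 5 of 6 arrays and had p = 0.0625. All arrays carry the same probes, so this test covers the spread between arrays and not the choice of loci.

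A locus usually gave signal on 1 strand or on neither. With a probe counted as detected when it was above the negative level on at least 3 arrays, 69 of the 340 two-strand loci were detected on the minus strand only, 56 on the plus strand only, 15 on both and 200 on neither. The plus probe was detected in 17.9% of the 84 loci with a detected minus probe and in 21.9% of the 256 loci without one. By the scanner's flag the same shares were 29.6% of 108 loci and 28.9% of 232 loci. Across the 340 loci, Spearman's rho between plus and minus signal was between -0.07 and 0.00 on the 6 arrays, a description across loci that share a library.

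**Figure D2:**
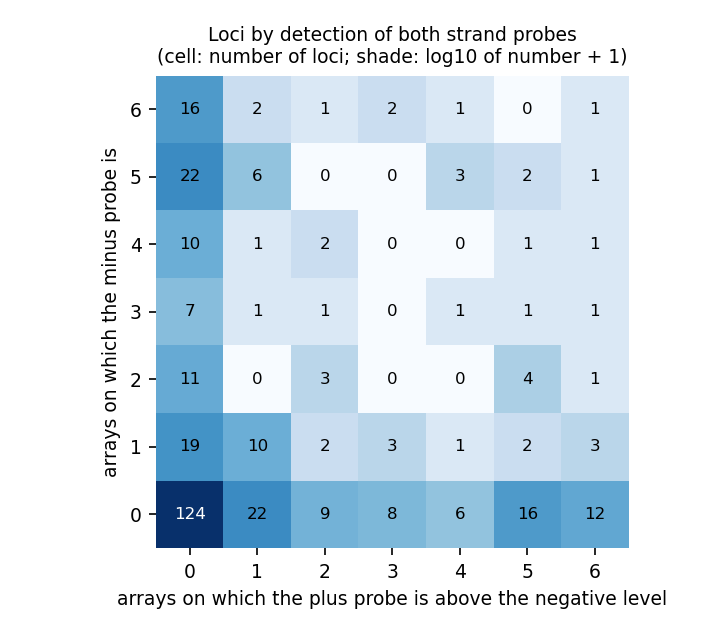
The 340 loci with a probe on both strands, sorted by the number of arrays (0 to 6) on which the plus probe (x axis) and the minus probe (y axis) were above the 95th percentile of the negative spots; each cell gives the number of loci. The cell with 0 arrays on both strands holds 124 loci and the cell with all 6 arrays on both holds 1.

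The comparison of IL-4-stimulated with resting microglia asks which lincRNA loci change as the cells take up the M2 state. A probe was tested when the scanner flagged it on at least 3 of the 6 arrays. This left 209 of the 691 mouse lincRNA probes (30.2%), against 55.3% of all probes, and the other 482 were not tested. Passing this filter can depend on the group in which a probe is bright, so the counts below are of tested probes and not of the class. Of the 49 probes that passed on exactly 3 arrays, 40 needed IL-4 array 2 to do so.

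With IL-4, 19 tested mouse lincRNA probes were lower and 0 were higher, taking a 2-fold difference or more together with a limma P, before adjustment, of 0.05 or less. They make up 9.09% of the 209, where 4.94% of all 32992 tested probes were called, 3.84% lower and 1.1% higher. The same limits called 6.31% of tested mouse lincRNA exon probes and 12.1% of tested human lincRNA counterpart probes. Adjusted by Benjamini-Hochberg over the 32992 probes, limma left 0 in each of these sets, with a smallest adjusted p of 0.893. Before adjustment, 19 lincRNA probes met the P limit alone (5.25% of all tested probes did). The methods' t-test called 12 (5.74%, against 2.53% of all tested probes), all lower, and also 0 after adjustment. The fold changes of the 19 lay between 2.06 and 7.06. The groups did not overlap in 16 of them, and in 22 of all tested lincRNA probes, where 10.8% of all tested probes had groups apart. Of the 22, 21 were lower with IL-4 (6.25% of all tested probes were apart and lower). The exception, chosen after its values were seen, was mouselincRNA0917-. On the normalized log2 scale it read 3.49, 4.65 and 4.66 in resting cells and 5.11, 4.78 and 4.92 with IL-4, a log2 fold change of 0.67 ± 0.44 (SE, limma) that did not pass.

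**Figure D3:**
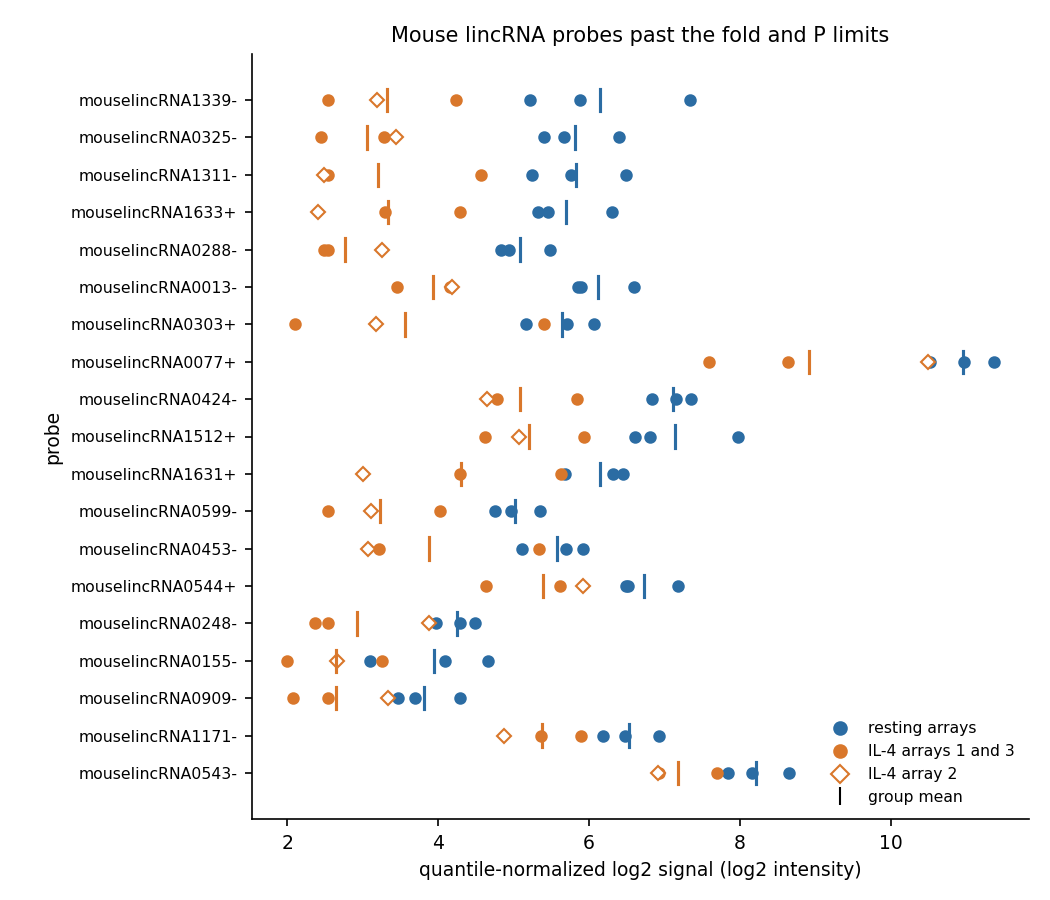
Quantile-normalized log2 signal of the 19 mouse lincRNA probes past the fold and P limits, on each of the 3 resting arrays (blue) and 3 IL-4 arrays (orange, array 2 as an open diamond), with vertical ticks for group means; probes are ordered by fold change. In 16 of the 19 every resting array lies above every IL-4 array.

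Dim probes made up most of the calls. Of the 144 lincRNA probes flagged on 3 to 5 arrays, 16 were called (11.1%), close to the 9.03% of all probes flagged that often. Of the 65 flagged on all 6 arrays, 3 were called (4.62%), against 1.89% of all such probes. Of the 19, 2 were above the negative level on all 6 arrays (mouselincRNA0077+ and mouselincRNA0543-), 4 on all 3 resting and on 0 IL-4 arrays, and 2 on 0 arrays. The 13 called minus probes came from 109 tested and the 6 called plus probes from 100 tested. The count moved with the arrays used. It was 7 without resting array 3 (4.38% of those tested, against 2.39% of all tested probes) and 51 without IL-4 array 1 (25.6% against 11.8%). It was 9 without resting array 1 (5.45% against 3.01%) and 12 without resting array 2 (5.97% against 3.07%). All of these were lower. Without IL-4 array 3 it was 17, of which 1 was higher, and the share was below that of all tested probes (8.13% against 9.34%). Without IL-4 array 2, 15 of 169 tested lincRNA probes were called (8.88%, against 4.41% of all tested probes). All 15 were lower, and 9 of them were among the 19. Of the fits described in the closing section, 17 could test mouselincRNA0013-, mouselincRNA0325-, mouselincRNA1339-, mouselincRNA0424- and mouselincRNA1512+, and each was called in 16, all but the one with a normexp background correction. The first 3 of these were named by rules that used these same values, and the last 2 were picked after their values were seen. All fits reuse the same 6 arrays, so the choice favours such counts and they give no separate support. With no filter on dim probes, 30 of the 691 were lower and 12 higher, 6.08% together. Of all probes 5.23% were then called, 1925 lower and 1195 higher. With each array scaled to its 75th percentile in place of quantile normalization, 10 of 209 were lower and 1 was higher, 5.26% together. Of all tested probes 3.85% were then called, 751 lower and 520 higher. With outlier spots kept, 19 of 209 were called (9.09%, against 4.9% of all tested probes). An intensity trend in limma gave 15 of 209 (7.18% against 3.92%) and a replicate block 17 of 209 (8.13% against 4.85%). With the negative level on at least 3 arrays as filter it was 15 of 157 (9.55% against 4.61%). In the authors' table of log2 values it was 15 of 167 (8.98% against 5.35%).

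Over the 209 tested probes the median log2 fold change was -0.47, with the middle of the distribution between -0.94 and -0.07 (quartiles), and 162 (77.5%) were below 0. Over all tested probes the median was -0.15 and 59.8% were below 0. The shift was shared by the related series. The median was -0.37 over tested mouse lincRNA exon probes (70.7% below 0) and -0.61 over tested human lincRNA counterpart probes (82.9%). Individual mouse lincRNA locus probes ranged from -2.82 to 1.30. The highest, mouselincRNA1235-, read 3.81, 3.07 and 4.04 in resting cells and 5.16, 6.40 and 3.24 with IL-4, so its groups overlapped (log2 fold change 1.30 ± 0.80 SE, limma, adjusted p = 0.893). With no filter on dim probes, the median over all 691 was 0.020. Replicates of IL-4 cells were farther apart than those of resting cells. The median SD over the 209 probes was 1.10 in the IL-4 group and 0.45 in the resting group, and 84.2% of the probes had the larger SD with IL-4, against 71.8% of all tested probes. A probe with a value on every array read lowest on IL-4 array 2 in 42.7% of cases and highest on IL-4 array 1 in 43.7%, where the shares for all tested probes were 33.2% and 24.6%.

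**Figure D4:**
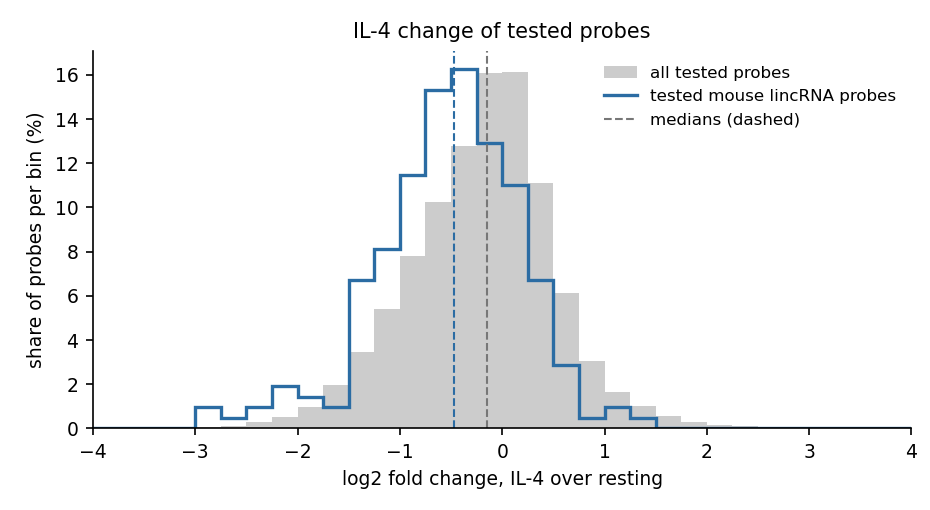
Distribution of log2 fold changes, IL-4 over resting, for the 209 tested mouse lincRNA probes (blue line) and all 32992 tested probes (grey), as the share of probes per bin; dashed lines mark the medians. The lincRNA median lies at -0.47 and the median of all tested probes at -0.15.

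The largest falls were on minus strands. mouselincRNA1339- read 5.22, 7.34 and 5.88 on resting arrays 1, 2 and 3 and 2.54, 3.19 and 4.24 on IL-4 arrays 1, 2 and 3. All resting arrays were above all IL-4 arrays, and the log2 fold change was -2.82 ± 0.68 (SE, limma, adjusted p = 0.893). mouselincRNA0325- read 5.40, 6.39 and 5.66 against 3.28, 3.44 and 2.45, with no overlap between the groups (log2 fold change -2.76 ± 0.46 SE, limma, adjusted p = 0.893). Both were flagged on all 3 resting arrays and, of the IL-4 arrays, on array 2 alone. Both were above the negative level on 3 resting and 0 IL-4 arrays. With each IL-4 value raised to that level where it lay below it, the group mean of mouselincRNA1339- was at least 1.79-fold lower with IL-4. That of mouselincRNA0325- was at least 1.43-fold lower. Both probes met the filter through their 3 resting arrays alone. They were picked as the largest falls among called probes whose groups did not overlap, so the lack of overlap came with the choice. That choice favours a bound above 1, and the bounds do not include the standard error. With 1 array left out these bounds went as low as 1.18-fold and 1.07-fold. Without IL-4 array 2 they were 2.48-fold and 1.98-fold. After a normexp background correction the log2 fold changes were -0.85 and -0.69, under the fold limit.

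Of the 691 probes, 3 were well above background on every resting array but 0 IL-4 arrays (0.434%, against 0.253% of all probes), and 0 showed the opposite pattern. mouselincRNA1311- read 5.24, 6.49 and 5.76 on resting arrays and 2.54, 2.48 and 4.57 on IL-4 arrays. Held to the negative level it was at least 1.40-fold lower with IL-4 (limma, adjusted p = 0.893), as low as 1.08-fold with 1 array left out, and at -0.64 on the log2 scale after normexp. mouselincRNA1633+ read 5.32, 6.30 and 5.46 against 3.29, 2.41 and 4.29. Its bound was 1.31-fold (limma, adjusted p = 0.893), with no bound left when the array that matters most was left out, and its log2 fold change after normexp was -0.65. The third, mouselincRNA1323+, read 4.47, 5.26 and 4.55 against 4.83, 2.53 and 4.22. Its groups overlapped and its log2 fold change of -0.90 ± 0.64 (SE, limma) did not pass, and it had no bound above 1. All 3 entered the fit through their resting arrays alone and so could hardly have come out higher with IL-4, and 2 of them are among the 19 called. Their choice as flagged in resting cells only also favours a bound above 1, and the bounds do not include the standard error. By the negative level, 4 probes were detected on all resting and 0 IL-4 arrays (0.579%, against 0.481% of all probes), namely mouselincRNA0013-, mouselincRNA0325-, mouselincRNA1339- and mouselincRNA1633+, and 0 the other way. With IL-4 array 2 left out of the count, the flag gave 9 such probes (1.30%, against 1.57% of all probes) and the negative level 5 (0.724%, against 0.501%), again with 0 the other way.

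Among probes above the negative level on all 6 arrays, 2 of 44 mouse lincRNA probes were called (4.55%), against 1.67% of all such probes. mouselincRNA0077+ read 10.97, 10.52 and 11.36 in resting cells and 7.59, 10.50 and 8.64 with IL-4. IL-4 array 2 lay just under the lowest resting array and the other IL-4 arrays well under it (log2 fold change -2.04 ± 0.74 SE, limma, adjusted p = 0.893). With a normexp background correction, in which only 2 lincRNA probes were called (0.957%, against 0.818% of all tested probes), it was one of them, at -1.82. It was not called without resting array 1, resting array 3, IL-4 array 1 (-1.40) or IL-4 array 3, by the methods' t-test, or with scan as a block (-0.45). The other was mouselincRNA0158-, at -1.03, named after its values were seen. mouselincRNA0543- lay just inside the fold limit. It read 8.16, 8.65 and 7.84 on resting and 7.69, 6.91 and 6.93 on IL-4 arrays (log2 fold change -1.04 ± 0.42 SE, limma, adjusted p = 0.893). Just outside, past neither limit, was mouselincRNA0772-, at 8.97, 8.51 and 8.16 against 8.05, 7.57 and 7.24 (log2 fold change -0.92 ± 0.41 SE, limma, adjusted p = 0.893). The call of mouselincRNA0543- was lost with 75th percentile scaling, normexp, the replicate block and 4 of the 6 fits that left out 1 array. In both probes the groups lay apart, by a gap smaller than the spread within either group.

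Whether both strands of a locus changed alike was asked with the log2 ratio of its plus to its minus probe on each array. What an array does to both probes alike cancels in this ratio. The levels of the probes do not cancel in it, so only its change between groups was read. Both probes were tested in 32 mouse lincRNA loci. In 17 of these both probes had a log2 fold change below 0, in 1 both were above 0, and in 14 the signs differed. In 9 loci 1 strand was past the limits, and in 0 both were. Over the 209 tested lincRNA probes, 77.5% were below 0 and 9.09% were called. These counts of loci have no counterpart over all pairs here, so they only describe the 32 loci. The plus-to-minus ratio itself changed by 1 log2 unit or more, with an unadjusted limma P within 0.05, in 3 of the 32 loci (9.38%), against 3.16% of the 475 opposite-strand pairs of all series on the array, and in 0 after adjustment (smallest adjusted p 0.863, limma). Without IL-4 array 2 it could be tested in 19 loci and was called in 3, beside 13 of 297 pairs of all series. With no filter on dim probes it was called in 18 of 340 loci, beside 161 of 2676 pairs. After normexp it was called in 1 of 32 loci, beside 16 of 475 pairs. With the flag on all 6 arrays it was called in 0 of 3, beside 2 of 84. With the negative level on at least 3 arrays it was called in 1 of 15, beside 14 of 320. With that level on all 6 arrays it was called in 0 of 1, beside 3 of 58.

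The 3 loci were mouselincRNA1339, mouselincRNA0325 and mouselincRNA0013, and in each the minus probe was above the negative level on 3 resting and 0 IL-4 arrays, so the size of the ratio change is not settled. The plus probe of mouselincRNA1339 read 3.88, 3.63 and 3.92 in resting and 4.91, 3.48 and 4.44 in IL-4 cells. The plus probe of mouselincRNA0325 read 3.80, 4.64 and 4.04 against 3.59, 5.48 and 2.81. Both were above the negative level on 0 arrays, so what their plus strands did cannot be told apart from background. The plus probe of mouselincRNA0013 was above that level on 5 arrays, all but IL-4 array 2. It read 7.07, 6.98 and 7.25 on resting and 8.19, 5.96 and 6.80 on IL-4 arrays, with a log2 fold change of -0.12 ± 0.59 (SE, limma) and overlapping groups. Its minus probe read 5.89, 6.59 and 5.85 against 3.46, 4.19 and 4.16, lower on every IL-4 array, with a log2 fold change of -2.18 ± 0.41 (SE, limma, adjusted p = 0.893) and of -0.72 after normexp. Held to the negative level the fall in group means was at least 1.75-fold, as low as 1.31-fold with 1 array left out. Being above that level in resting cells only favours a bound above 1, and the bound does not include the standard error. The log2 ratio of plus to minus in mouselincRNA0013 was 1.17, 0.39 and 1.41 in resting cells and 4.74, 1.77 and 2.64 with IL-4 (limma, adjusted p = 0.863).

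**Figure D5:**
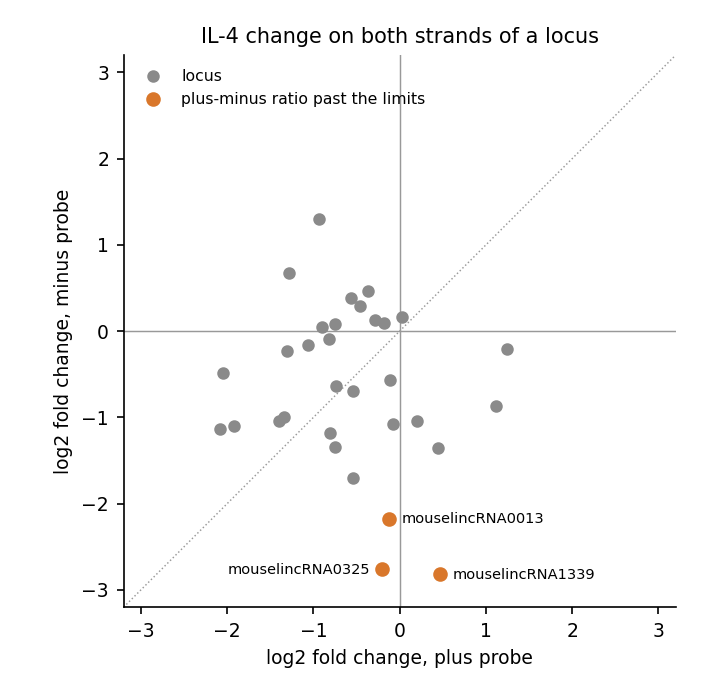
Log2 fold change (IL-4 over resting) of the plus probe (x axis) and the minus probe (y axis) of the 32 mouse lincRNA loci with both probes tested; orange points are the 3 loci whose plus-to-minus ratio was past the limits, and the dotted line marks equal change on both strands. The 3 orange loci lie low on the y axis, between -2.82 and -2.18, with plus probes between -0.20 and 0.47.

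By the flag, 3 loci had both probes well above background on all 6 arrays. By the negative level only mouselincRNA0077 did, since mouselincRNA0522+, mouselincRNA0522- and mouselincRNA0706- were below it on IL-4 array 2. In mouselincRNA0522 the plus probe read 6.88, 7.14 and 6.60 on resting and 7.97, 5.49 and 6.06 on IL-4 arrays, and the minus probe 5.93, 5.56 and 6.54 against 7.57, 5.93 and 5.93. Both overlapped between groups (log2 fold changes -0.37 ± 0.66 and 0.47 ± 0.57, SE, limma). In mouselincRNA0077 the minus probe read 7.54 and 7.23 on resting arrays 2 and 3 and 7.70, 6.53 and 6.47 with IL-4, with its spot on resting array 1 left out as an outlier. Its log2 fold change was -0.49 ± 0.54 (SE, limma), beside -2.04 on the plus strand. In mouselincRNA0706 the plus probe read 6.29, 7.21 and 7.20 against 5.67, 7.54 and 5.89, and the minus probe 5.98, 6.95 and 6.48 against 6.95, 4.31 and 6.08. On IL-4 array 2 its plus probe was the highest and its minus probe the lowest of the 6 arrays. Neither passed the limits (log2 fold changes -0.54 ± 0.60 and -0.69 ± 0.70, SE, limma).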

How the data were processed

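The authors deposited Agilent Feature Extraction (version 10.7.3.1) output for 6 one-colour arrays, giving for each spot a processed signal, an intensity corrected for its background. A second deposited table, of log2 values, holds 167 of the lincRNA locus probes, made by quantile normalization and filtering in GeneSpring GX according to the methods, and served as an alternative. Per the file headers, the array was designed on the mm9 build.

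Control spots, 1200 negative spots and spots flagged as outliers (4 lincRNA values) were left out. The log2 signals of 59994 spots were quantile normalized between arrays, as in the paper's methods, and averaged per probe. Probes flagged well above background on at least 3 arrays entered a linear model with condition as the only term (limma version 3.58.1 in R 4.3.3). The fit and the strand-ratio fit were tested on simulated data. The negative level on the normalized scale was the lowest value among probes above the 95th percentile of the array's negative spots.

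Single probes were named by rule. First came the 2 largest falls and rises past the limits (0 rose), with groups apart and the flag on all 3 arrays of a group. Then came their opposite strands, the 3 smallest P of the strand ratio and loci flagged on both strands on all 6 arrays. Last came probes flagged in 1 group only, and 1 probe on each side of the fold limit. The members, lists and tests were chosen with earlier results of these data known. Figures were drawn with matplotlib (version 3.10.9).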

Additional observations from a re-analysis of the deposited data

How the results depend on the processing

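Brackets hold shares of tested lincRNA probes against all tested probes, others are above. The count of 19 called lincRNA probes (9.09% against 4.94%) became 11 under 75th percentile scaling (5.26% against 3.85%) and 2 after normexp (0.957% against 0.818%). With the flag required on all 6 arrays it was 4 (6.15% against 2.6%). With no filter it was 42, 12 of them higher (6.08% against 5.23%), and with the methods' t-test 12 (5.74% against 2.53%). Scan as a block, which sets IL-4 array 2 alone against the resting arrays, gave 79 (37.8% against 26.9%). Leaving out 1 array gave 7 (4.38% against 2.39%, without resting array 3) to 51 (25.6% against 11.8%, without IL-4 array 1). It was 9 and 12 without resting arrays 1 and 2, and 15 and 17 (8.13% against 9.34%) without IL-4 arrays 2 and 3. It was 15 with the negative level as filter, 19 with flagged spots kept and 15 in the authors' table. An intensity trend gave 15 and the replicate block 17. With the negative level required on all 6 arrays, chosen after seeing the data, it was 3 of 44 (6.82% against 2.55%). The 75th percentile scaling run without IL-4 array 2, also added later, gave 15 of 169, 1 higher (8.88% against 3.92%). The adjusted count was 0 in every fit, where the smallest adjusted p over all probes was 0.0538 to 1.00.

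The 3 loci with a changed strand ratio became 1 with normexp, 0 with the flag on all 6 arrays and 18 with no filter. The negative level gave 1 on 3 arrays and 0 on all 6. Counts over all pairs are above. Scan as a block, with 1 IL-4 array to compare, raised both counts. Leaving out 1 array gave 0 to 4, with 0 without resting array 1 or 3. The median log2 fold change turned to 0.020 with no filter and was -0.86 to -0.21 with 1 array left out. The difference in detection, 4.29 percentage points higher with IL-4 by the flag, became -5.79 by the negative level, 0.00 by the looser positive-and-significant flag, 4.49 with outlier spots not counted, and -12.3 to 15.7 with 1 array left out, where it turned to -1.09 without resting array 2 and to -12.3 without IL-4 array 2. The cause of these shifts was not tested.

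Of 17 named probes, those falling past the limits kept their sign in every fit run. Their calls came from the same arrays, which favours this. Signs turned in 12 fits of weakly changed probes: mouselincRNA0325+ (0.19 with the 75th percentile, 1.32 with the scan as a block, -0.033 to 0.32 with 1 array left out), mouselincRNA0013+ (0.0048 with the 75th percentile, 0.0076 with normexp, -0.72 to 0.42 with 1 array left out), mouselincRNA1339+ (-0.33 with the scan), mouselincRNA0522- (-0.084 with the scan, -0.082 to 0.81 with 1 array left out), mouselincRNA0522+ (-1.09 to 0.14 with 1 array left out), mouselincRNA0706+ (0.64 with the scan) and mouselincRNA0706- (-1.26 to 0.049 with 1 array left out). Replicate numbers do not pair the arrays (correlations of deviations across probes -0.22, 0.14 and -0.09); with the replicate block the calls were 17 lincRNA probes, 14 of them among the 19, and 2 loci. Dim signals limit what can be seen: 412 of 691 probes stayed under the negative level on all arrays.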
